A study of Mus musculus with 6 samples.

Results

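The 10 genes described here, which are widely read as markers of macrophage polarisation, were followed in whole mammary tumours of mice given Vismodegib or its vehicle. They are a list of names, set with no threshold on their values but with earlier results of these data known, and all 10 have a row in the deposited table of 23381 genes. The enzymes are Arg1 and Nos2, the secreted proteins Chil3 and Retnla, the surface receptors Mrc1, Cd163 and Il4ra, and the cytokines Il10, Tnf and Il12b. Every tumour grew from 500000 cells of 4T1, a mouse mammary carcinoma line, grafted orthotopically into the inguinal fat pad of Balb/c mice, the strain of origin of the line. The mice were 10 weeks old per the labels, with no allele or transgene named. After tumours had formed, 1 group received DMSO, the vehicle, and the other received Vismodegib at 2 mg per mouse, both 3 times per week for 3 weeks. Vismodegib binds Smoothened, the membrane protein that passes on the signal of Hedgehog ligands. There were 3 libraries per group, and the labels do not say that each came from its own mouse, so the tests measure only the spread between these libraries, which may be technical.

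Macrophages change their products with the signals around them. Interferon gamma and bacterial products drive a classical programme that includes Nos2, Tnf and Il12b. Interleukin 4 and interleukin 13 bind receptors that contain the Il4ra chain and act through STAT6 to drive an alternative programme that in mice includes Arg1, Chil3, Retnla and Mrc1, while Il10 and Cd163 are linked to restraint of inflammation. Tumours often show parts of both programmes together, and several of these genes are also used by other cells: Arg1 and Nos2 by granulocytic suppressor cells, Il10 and Tnf by lymphocytes, and Il4ra by many cell types. The RNA here came from the whole tumour, so fewer macrophages and less RNA per macrophage cannot be told apart.

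Where 3 values are given for a group, they are those of replicates 1, 2 and 3 in that order, with DMSO libraries called controls. The values are RPKM, the reads of a gene per kilobase of its length and scaled to library size, so genes can be compared per length. The read steps in the table put the libraries at 34800000 to 58000000 reads, with Vismodegib replicate 3 the deepest. The epithelial keratin Krt18 stood at 628 to 1030 RPKM in all 6 libraries. All 9 macrophage markers (Adgre1, Csf1r, Cd68, C1qa, C1qb, C1qc, Fcgr1, Mertk and Aif1) were measured, with a summed level of 1230 to 2170 RPKM in DMSO and 804 to 2750 RPKM in Vismodegib. The sum follows the most abundant markers and does not stand for each of them. Adgre1, Csf1r, Cd68 and Mertk were each at most 20.9 RPKM and C1qb at most 211 RPKM, so most of it lay in C1qa, C1qc, Fcgr1 and Aif1. Gli1, the usual readout of Hedgehog signalling, was at most 0.0802 RPKM in any library. Limma was run on the 11818 genes averaging 0.5 RPKM or more, and 0 of them passed (0.0%), a pass meaning an adjusted p under 0.05. Unadjusted, 266 genes (2.25%) had p under 0.05, and the groups of 595 genes (5.03%) did not overlap.

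The 10 members spanned the range from abundant to undetected. Over the 6 libraries Arg1 averaged 42.3 ± 29.1 RPKM (SD), Il4ra 13.4 ± 3.47 RPKM, Il10 13.1 ± 3.63 RPKM and Nos2 11.1 ± 8.90 RPKM. Mrc1 averaged 5.32 ± 1.69 RPKM, Retnla 3.54 ± 2.73 RPKM, Tnf 1.07 ± 0.553 RPKM, Chil3 0.957 ± 0.517 RPKM and Cd163 0.411 ± 0.372 RPKM. Only some steps in this order held in every library: Arg1 lay above Il4ra, Retnla above Tnf and Cd163 above Il12b in 6 of 6. Neighbours elsewhere changed places, with Il4ra above Il10 in 3 of 6 libraries, Il10 above Nos2 in 4 of 6 and Tnf above Chil3 in 4 of 6. Mrc1 exceeded Retnla in 5 of 6 libraries, Nos2 exceeded Mrc1 in 5 of 6, and Chil3 exceeded Cd163 in 5 of 6. The alternative-programme enzyme and the classical-programme enzyme were both well expressed in these tumours, while of the classical cytokines Tnf was low and Il12b near 0.

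**Figure D1:**
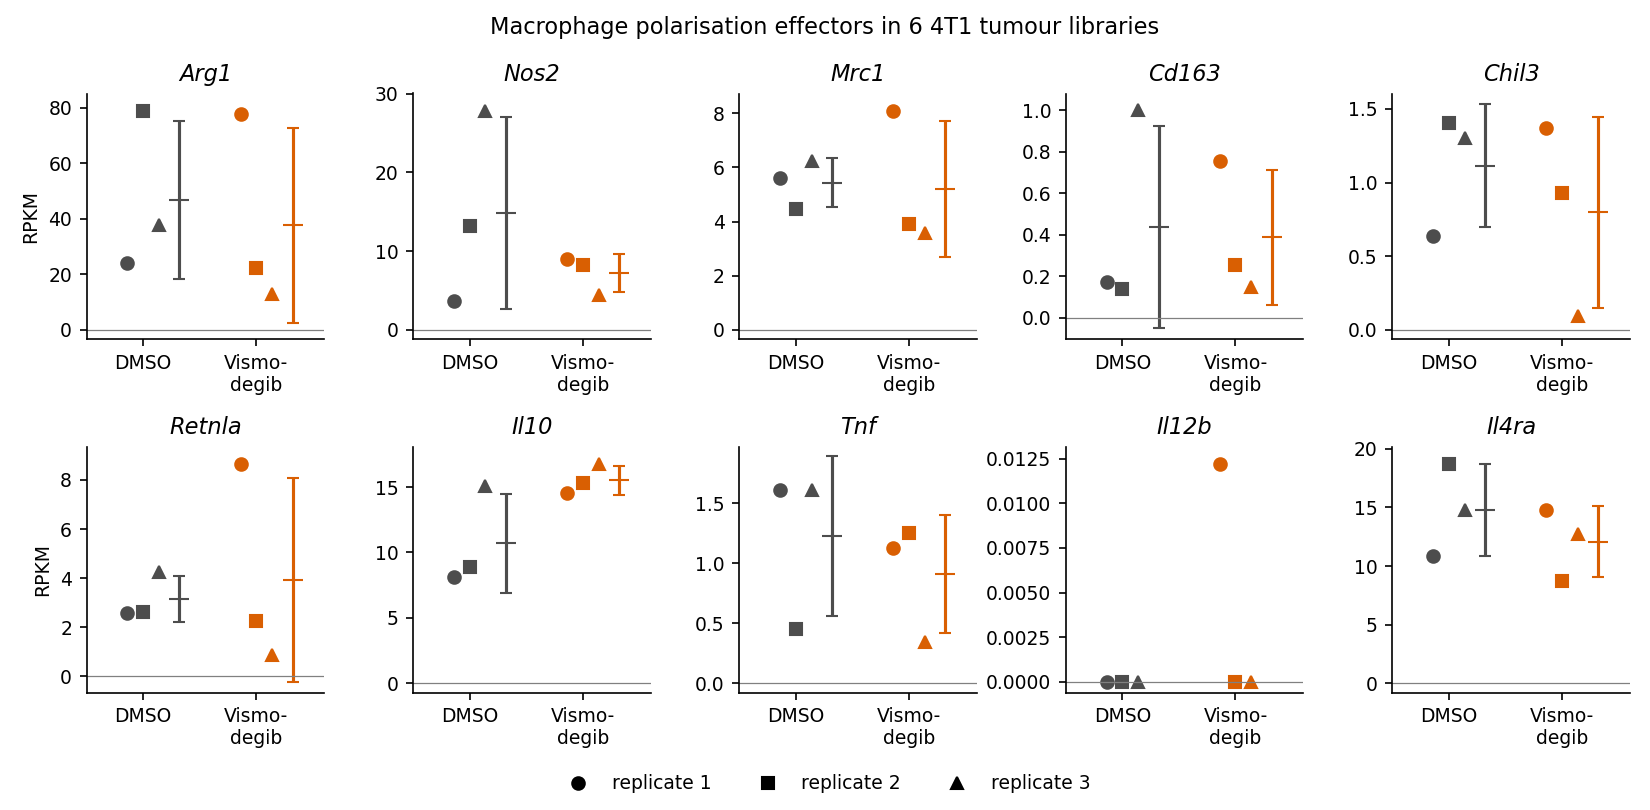
RPKM of the 10 members in each library, DMSO in grey and Vismodegib in orange, with the marker shape giving the replicate number and bars giving the mean ± SD of 3 libraries (none for Il12b). Each panel has its own linear axis. The groups overlap in the panels of all 8 members tested; for Mrc1 and Retnla 1 Vismodegib library lies above and 2 lie below all DMSO libraries.

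Arg1 encodes arginase 1, which splits arginine into ornithine and urea (ENSMUSG00000019987.9, chr10:24915221-24927484, minus strand, GRCm38). It was at 24.2, 78.9 and 37.8 RPKM in the controls against 77.9, 22.2 and 12.9 RPKM in the treated tumours. DMSO replicate 2 and Vismodegib replicate 1 were nearly level at the top, with the other libraries of each group far below, so the groups overlapped. The spread was 3.26-fold within DMSO and 6.05-fold within Vismodegib. Against that spread, the difference of Vismodegib minus DMSO was -0.55 on the log2(RPKM + 0.5) scale (SE 0.651, 95% interval -2.03 to 0.93; limma, adjusted p = 1). The size rested on the extreme libraries: without Vismodegib replicate 3 the difference was -0.001, and without Vismodegib replicate 1 it was -1.28.

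Nos2 encodes the inducible nitric oxide synthase, which turns arginine into nitric oxide and citrulline (ENSMUSG00000020826.8, chr11:78920787-78960254, plus strand). Its levels were 3.61, 13.2 and 27.8 RPKM in the controls against 9.03, 8.24 and 4.44 RPKM in the treated tumours. DMSO held both the highest and the lowest of the 6 values, a 7.69-fold spread against 2.03-fold within Vismodegib. The log2 difference was -0.65 (SE 0.627, 95% interval -2.08 to 0.77; limma, adjusted p = 1). It was -0.01 without DMSO replicate 3 and -1.41 without DMSO replicate 1. With library weights from limma, which gave DMSO replicate 3 a weight of 7.28 against 0.319 and 0.316 for the other DMSO libraries, Nos2 alone of the members passed, at -1.60 (adjusted p = 0.0464), in a fit that called 420 genes. The estimate of these weights stopped before it converged, and they rest on 3 libraries per group.

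Since both enzymes draw on the same arginine, their ratio was taken within each library. Arg1 exceeded Nos2 in all 6 libraries, by 6.69, 5.97 and 1.36 times in the controls and by 8.63, 2.69 and 2.90 times in the treated tumours. DMSO replicate 3, with the highest Nos2 of all, stood lowest, and Vismodegib replicate 1, with Arg1 near the top and moderate Nos2, stood highest. On the log2 scale the ratio was 1.85 ± 1.22 in DMSO and 1.95 ± 0.944 in Vismodegib (mean ± SD, n = 3 each), a difference of 0.10 (two-sided exact permutation p = 1, where 3 against 3 cannot go below 0.1). The sign turned without DMSO replicate 3 (-0.61) and without Vismodegib replicate 1 (-0.45).

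**Figure D2:**
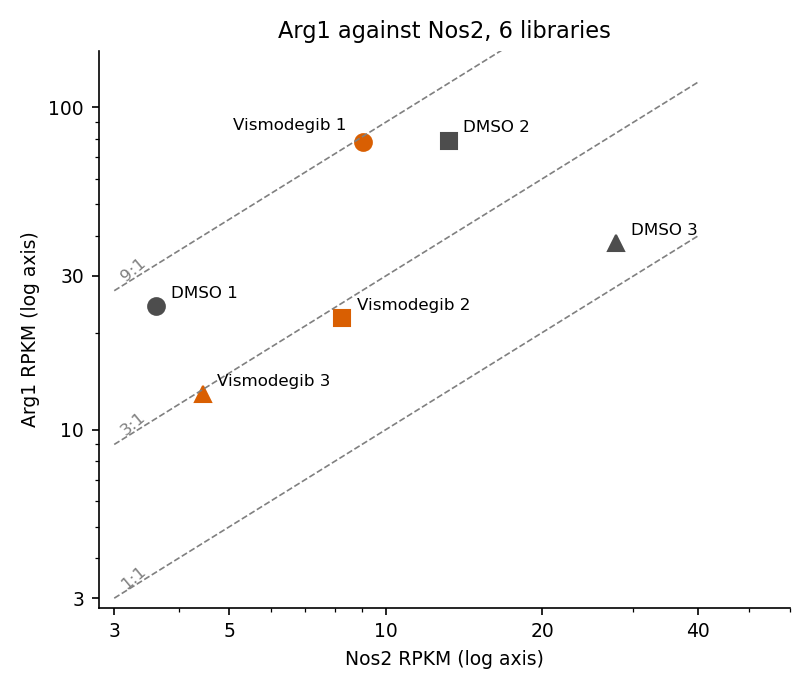
Arg1 against Nos2 RPKM in the 6 libraries, both axes logarithmic, DMSO in grey and Vismodegib in orange; dashed lines mark constant ratios of Arg1 to Nos2. All 6 points lie above the line of equal levels, from 1.36 times in DMSO replicate 3 to 8.63 times in Vismodegib replicate 1.

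Of the 12 other genes listed for arginine and nitric oxide metabolism, 11 were high enough to be tested, 8 with differences above 0 and 3 below, and 0 passed limma's test (0 at an unadjusted p under 0.05). Their median difference was 0.19, beside 0.05 for all genes tested. Ddah2, which belongs to the family that clears methylated arginine inhibitors of nitric oxide synthase, was at 145, 53.2 and 53.7 RPKM in the controls against 174, 105 and 156 RPKM in the treated tumours. Ass1, which rebuilds arginine from citrulline, was at 5.81, 13.3 and 9.17 RPKM in the controls against 15.5, 15.9 and 11 RPKM in the treated tumours. In both genes 2 of the 3 treated libraries lay above every control.

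Retnla, also called Fizz1 or Relm alpha, and Chil3, also called Ym1, encode secreted proteins that interleukin 4 induces strongly in mouse macrophages. Both were lowest in Vismodegib replicate 3. The RefSeq promoter table (GRCm38.p6) matched 7 of the 10 members, all but Arg1, Nos2 and Il10, and the 250 bases before each start were searched on both strands for TTC and GAA with 4 bases between them (the spacing preferred by STAT6) and an NF-kB type motif (GGG, any 2 bases, T, any base, TCC). Of the 7, Retnla alone held the STAT6 spacing, and none held the NF-kB type motif. Of all 32851 promoter windows, 5.85% and 4.64% hold these motifs, and a match describes the letters, not a working site. The Retnla window is shown, chosen after the values were seen, because it holds the spacing of the interleukin 4 pathway, with the matching bases in capitals and no overlap with the other motif. It is chr16:48842359-48842550 (plus strand, cut 58 bases short where the GENCODE gene begins, match at chr16:48842464-48842473).
Retnla: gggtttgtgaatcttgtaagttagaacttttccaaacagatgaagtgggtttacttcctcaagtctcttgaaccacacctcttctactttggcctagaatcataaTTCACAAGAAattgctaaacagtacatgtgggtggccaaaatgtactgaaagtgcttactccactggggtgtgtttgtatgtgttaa

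Retnla (ENSMUSG00000061100.4, chr16:48842551-48844461, plus strand) was at 2.59, 2.64 and 4.25 RPKM in the controls against 8.66, 2.27 and 0.864 RPKM in the treated tumours. The DMSO libraries stayed within 1.64-fold of each other, while the Vismodegib libraries spread 10.03-fold, with 1 above and 2 below the whole DMSO range. For its transcript of 599 bases these values rest on about 55 to 103 reads per DMSO library and 30, 58 and 216 reads in Vismodegib, so counting error is small beside the spread. The log2 difference was -0.14 (SE 0.605, 95% interval -1.51 to 1.24; limma, adjusted p = 1). It turned to 0.49 without Vismodegib replicate 3 and 0.07 without DMSO replicate 3, and it was -0.88 without Vismodegib replicate 1. Whether the wider spread of Retnla in the treated group differs from that in the controls was not tested.

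Chil3 (ENSMUSG00000040809.10, chr3:106147554-106167564, minus strand) was at 0.638, 1.41 and 1.30 RPKM in the controls against 1.37, 0.932 and 0.0951 RPKM in the treated tumours. Vismodegib replicate 3 stood alone at the bottom, at about 8.49 reads, while the other 5 libraries held 36.8 to 87.7 reads. The log2 difference was -0.43 (SE 0.436, 95% interval -1.42 to 0.56; limma, adjusted p = 1), and 0.05 without Vismodegib replicate 3. Of the 1440 windows of 100 bases in the longest Chil3 transcript, 5.42% occur in transcripts of Chil4 or Gm6522, so some of its reads may belong to these relatives. Chil4 has no row under that symbol in the deposited values, so its own level is not known here. None of the other 9 members shared such a window with another gene.

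Among the 16 other alternative activation targets listed, 14 were in the table and 10 were tested, 5 with differences above 0 and 5 below, with a median of 0.12. Of these, 0 passed limma's test and 2, Ccl24 and Pdcd1lg2, had an unadjusted p under 0.05, both lower in Vismodegib, as were 0.313% of all genes tested. Ccl24, an eosinophil-attracting chemokine of alternatively activated macrophages, was at 16.9, 32.1 and 25.5 RPKM in the controls against 12.6, 7.90 and 6.76 RPKM in the treated tumours, without overlap, whereas 0.745% of all genes tested lay wholly lower. Pdcd1lg2, which encodes the checkpoint ligand PD-L2, was at 2.15, 4.51 and 4.16 RPKM in the controls against 2.33, 1.97 and 1.0 RPKM in the treated tumours. The library order of Ccl24 was not that of Retnla: Vismodegib replicate 1, the highest of all for Retnla, was below every control for Ccl24. The list's summed level was 116 to 122 RPKM in DMSO and 93.6 to 191 RPKM in Vismodegib.

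Mrc1 encodes the mannose receptor CD206, an endocytic lectin of tissue macrophages (ENSMUSG00000026712.3, chr2:14229392-14332057, plus strand). It was at 5.60, 4.47 and 6.24 RPKM in the controls against 8.08, 3.92 and 3.59 RPKM in the treated tumours. Vismodegib replicate 1 was above every control and the other 2 treated libraries were below every control. The log2 difference was -0.13 (SE 0.334, 95% interval -0.89 to 0.63; limma, adjusted p = 1). Leaving out Vismodegib replicate 3 turned it to 0.06, leaving out Vismodegib replicate 2 to 0.008, and without Vismodegib replicate 1 it was -0.47.

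Cd163 encodes the scavenger receptor that takes up haemoglobin bound to haptoglobin (ENSMUSG00000008845.9, chr6:124304656-124330527, plus strand). It was low throughout, at 0.171, 0.137 and 1.0 RPKM in the controls against 0.757, 0.253 and 0.148 RPKM in the treated tumours, and did not reach the mean of 0.5 RPKM needed for limma's test. In each group 1 library, DMSO replicate 3 or Vismodegib replicate 1, stood well above the others. On about 21.2 to 180 reads per library, the log2 difference was -0.02 (two-sided exact permutation p = 0.9). It was 0.38 without DMSO replicate 3. With a pseudocount of 0.1 it was 0.03, so that the sign followed the pseudocount.

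Of 13 other scavenger receptor and lectin genes listed, 12 were in the table and 7 were tested, 3 above 0 and 4 below, with a median of -0.03; 0 passed limma's test and 0 had an unadjusted p under 0.05. Levels were uneven for some and steadier for others. Msr1, the class A scavenger receptor, was at 10.3, 7.12 and 7.63 RPKM in the controls against 10.9, 5.75 and 5.16 RPKM in the treated tumours. Folr2, the folate receptor of resident macrophages, was at 0.725, 4.12 and 2.69 RPKM in the controls against 3.26, 0.509 and 0.859 RPKM in the treated tumours. Hmox1, the enzyme that breaks down haem, was at 15.5, 35.9 and 54.7 RPKM in the controls against 39.3, 32.2 and 7.83 RPKM in the treated tumours. As with Cd163, Vismodegib replicate 1 was the highest treated library for both genes. Hmox1 had a log2 difference of -0.52 that turned to 0.18 without Vismodegib replicate 3.

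Il4ra, the receptor chain shared by interleukin 4 and interleukin 13, was among the steadier members (ENSMUSG00000030748.9, chr7:125552120-125579474, plus strand). It was at 10.8, 18.7 and 14.8 RPKM in the controls against 14.7, 8.76 and 12.7 RPKM in the treated tumours. The highest library was a control and the lowest a treated one, with the remaining 4 interleaved between 10.8 and 14.8 RPKM. The log2 difference was -0.28 (SE 0.305, 95% interval -0.97 to 0.41; limma, adjusted p = 1). It stayed below 0 with each library left out, from -0.48 without DMSO replicate 1 to -0.07 without Vismodegib replicate 2.

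The ligands of this receptor were low, both averaging under the filter of 0.5 RPKM. Il4 was at most 0.0587 RPKM, and Il13 was at 0.0222, 0.619 and 0.882 RPKM in the controls against 0.339, 0.155 and 0.301 RPKM in the treated tumours. Of the 14 listed genes of interleukin 4 and STAT6 signalling, 9 were tested, 5 above 0 and 4 below, with a median of 0.02; 0 passed limma's test and 1, Socs1, had an unadjusted p under 0.05, lower in Vismodegib (2.25% of all genes in either direction, 0.313% lower). Socs1, which feeds back on cytokine receptors, was at 16.3, 34.4 and 35.5 RPKM in the controls against 18.2, 9.41 and 11.5 RPKM in the treated tumours. Stat6 itself was at 9.16, 15.0 and 15.0 RPKM in the controls against 11.9, 9.23 and 10.1 RPKM in the treated tumours. DMSO replicate 1 was low in Il4ra, Il13, Socs1 and Stat6 alike, within or below the treated range, while DMSO replicates 2 and 3 were above it for Il13, Socs1 and Stat6.

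Il10 encodes the cytokine that restrains macrophages and dendritic cells (ENSMUSG00000016529.5, chr1:131019845-131024974, plus strand). Of the members tested it alone had a difference above 0. Its levels were 8.15, 8.92 and 15.1 RPKM in the controls against 14.5, 15.3 and 16.7 RPKM in the treated tumours. The treated libraries lay within 1.15-fold of each other, well above 2 controls, but DMSO replicate 3 lay among them. The means were 10.7 ± 3.79 and 15.5 ± 1.12 RPKM, and the log2 difference was 0.56 (SE 0.289, 95% interval -0.09 to 1.22; limma, adjusted p = 1). With each library left out it stayed between 0.40 and 0.83, but with library weights, which lean on DMSO replicate 3, it was 0.08.

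The list for receptors and signalling of interleukin 10 and interleukin 12 had 10 genes, of which 9 were in the table and 8 were tested. Differences were above 0 for 6 and below for 2, with a median of 0.05. Of those tested, 0 passed limma's test and 0 had an unadjusted p under 0.05. Stat3, which carries the interleukin 10 signal, was at 37.6, 17.1 and 25.6 RPKM in the controls against 32.5, 25.1 and 44.6 RPKM in the treated tumours. Ebi3, a subunit of interleukin 27 and interleukin 35, was at 5.16, 2.91 and 1.69 RPKM in the controls against 1.94, 1.36 and 3.38 RPKM in the treated tumours. Neither followed the libraries of Il10 throughout: DMSO replicate 1, the lowest for Il10, was the highest control for both. Vismodegib replicate 3, the highest for Il10, was the highest of all for Stat3 and the highest treated library for Ebi3.

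Tnf encodes tumour necrosis factor, an early product of classical activation (ENSMUSG00000024401.14, chr17:35199381-35202007, minus strand). It was at 1.61, 0.455 and 1.61 RPKM in the controls against 1.13, 1.26 and 0.347 RPKM in the treated tumours, on about 26 to 107 reads per library. Each group held 1 low library, DMSO replicate 2 and Vismodegib replicate 3, and the other 4 lay between 1.13 and 1.61 RPKM. The log2 difference was -0.27 (SE 0.410, 95% interval -1.21 to 0.66; limma, adjusted p = 1). It turned to 0.06 without Vismodegib replicate 3 and was -0.65 without DMSO replicate 2. Of 14 listed genes of tumour necrosis factor signalling, 13 were tested, 8 above 0 and 5 below, with a median of 0.06; 0 passed limma's test and 0 had an unadjusted p under 0.05. Traf1, an adaptor of its receptors, was at 3.75, 13.4 and 5.36 RPKM in the controls against 4.04, 4.16 and 3.09 RPKM in the treated tumours. Timp3, an inhibitor of the protease that sheds the cytokine, was at 3.08, 1.41 and 2.61 RPKM in the controls against 6.34, 1.78 and 4.95 RPKM in the treated tumours.

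Il12b encodes the p40 subunit shared by interleukin 12 and interleukin 23 (ENSMUSG00000004296.14, chr11:44400063-44414033, plus strand). It was listed at 0 in 5 libraries and at 0.0122 RPKM in Vismodegib replicate 1, which for a transcript of 1944 bases is about 1 read (0.988). At these depths 3 reads correspond to 0.0266 to 0.0443 RPKM, so levels up to that are allowed by the zeros, for counting error alone, and no difference was detectable. The partner subunit Il12a was also near 0, with at most 0.0872 RPKM, in DMSO replicate 3.

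Other genes of the classical programme were plentiful by comparison. All 16 listed signalling genes were tested, 7 above 0 and 9 below, with a median of -0.15; 0 passed limma's test and 1, Cd14, had an unadjusted p under 0.05, higher in Vismodegib like 1.94% of all genes. Cd14, which presents lipopolysaccharide to Tlr4, was at 9.77, 11.3 and 13.9 RPKM in the controls against 36.6, 15.2 and 20.7 RPKM in the treated tumours, without overlap; in this direction 4.29% of all genes tested did not overlap. Irf1, an interferon-induced transcription factor, was at 79.1, 83.6 and 99.8 RPKM in the controls against 71.4, 67.6 and 67.9 RPKM in the treated tumours, wholly lower, as were 0.745% of all genes tested; it is named because its groups did not overlap. Nfkb1, the p105 and p50 subunit of NF-kB, was at 3.62, 11.5 and 8.42 RPKM in the controls against 5.86, 5.14 and 2.83 RPKM in the treated tumours. Of the 16 listed classical targets 14 were tested, 7 above 0 and 7 below, with a median of 0.007; 0 passed limma's test and 0 had an unadjusted p under 0.05. Ccl5, a T cell chemokine, was at 25.6, 30.9 and 31.3 RPKM in the controls against 25.5, 17.7 and 20 RPKM in the treated tumours, also without overlap, by a narrow margin. Cd86, a costimulatory ligand, was at 1.23, 0.525 and 0.628 RPKM in the controls against 1.65, 1.01 and 1.12 RPKM in the treated tumours.

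Of the 8 members tested, 5 (Arg1, Mrc1, Chil3, Retnla and Tnf) were lowest in Vismodegib replicate 3, the same library in which Il10 was highest. That library, although the deepest, also had the most genes at 0 in the whole table, 5313 against 4052 to 5134 in the others. The share of all genes that were lowest there was not counted, so the count of 5 is not shown to be particular to the members. Vismodegib replicate 1 was the highest library for Mrc1 and Retnla and was within the top 3 for Arg1, Chil3 and Nos2. DMSO replicate 1 was lowest for Nos2 and Il10, and DMSO replicate 3 was highest for Nos2 and, all but level with DMSO replicate 1, for Tnf. For Mrc1 and Retnla both extremes were thus treated tumours.

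**Figure D3:**
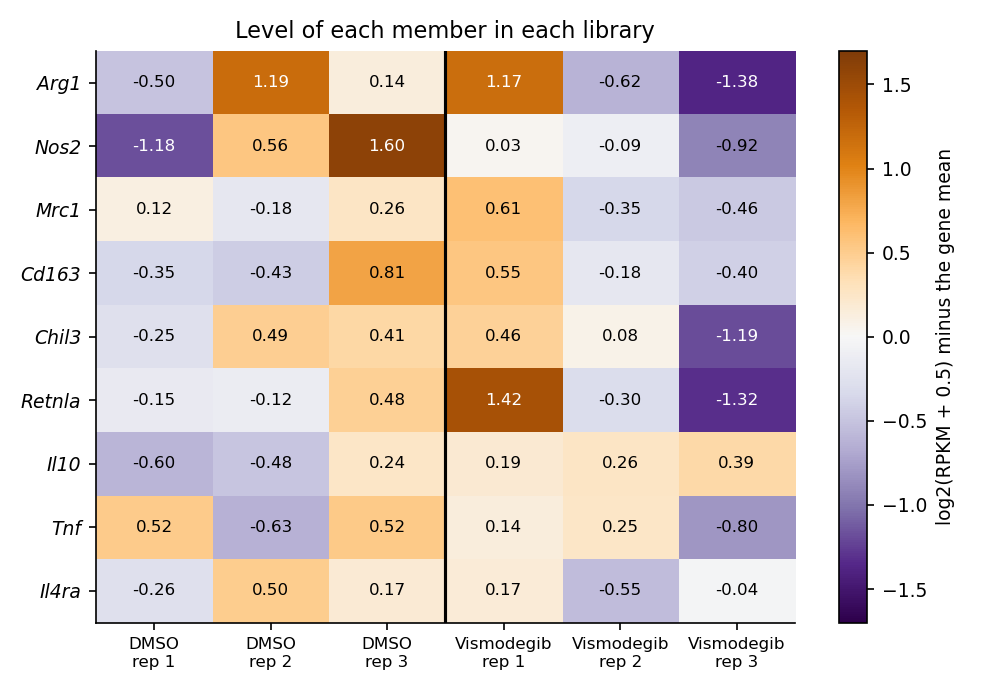
Deviation of each member from its own mean over the 6 libraries, on the log2(RPKM + 0.5) scale, for the 9 members with values above 0 in all libraries; orange is above and purple below the mean, and the black line separates DMSO from Vismodegib. Vismodegib replicate 3 is at -1.38 for Arg1, -1.19 for Chil3 and -1.32 for Retnla, while Vismodegib replicate 1 is at 1.17, 0.46 and 1.42.

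The spread within groups differed between the members. The residual SD within groups was 1.104 for Arg1, 1.06 for Nos2 and 1.01 for Retnla on the log2 scale, against a median of 0.37 over all genes tested, which placed them at percentiles 97.4, 97.0 and 96.5. Chil3 and Tnf, at 0.68 and 0.62, were at percentiles 88.4 and 85.1. Mrc1 (0.45), Il4ra (0.37) and Il10 (0.33) were closer to the middle, at percentiles 65.3, 51.7 and 41.9. By this measure the 3 most variable of the 8 members tested were therefore the 2 arginine enzymes and a secreted effector. The order differed for the highest over the lowest RPKM of the 6 libraries. That was 14.79 for Chil3, 10.03 for Retnla, 7.69 for Nos2, 7.32 for Cd163 and 6.12 for Arg1.

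**Figure D4:**
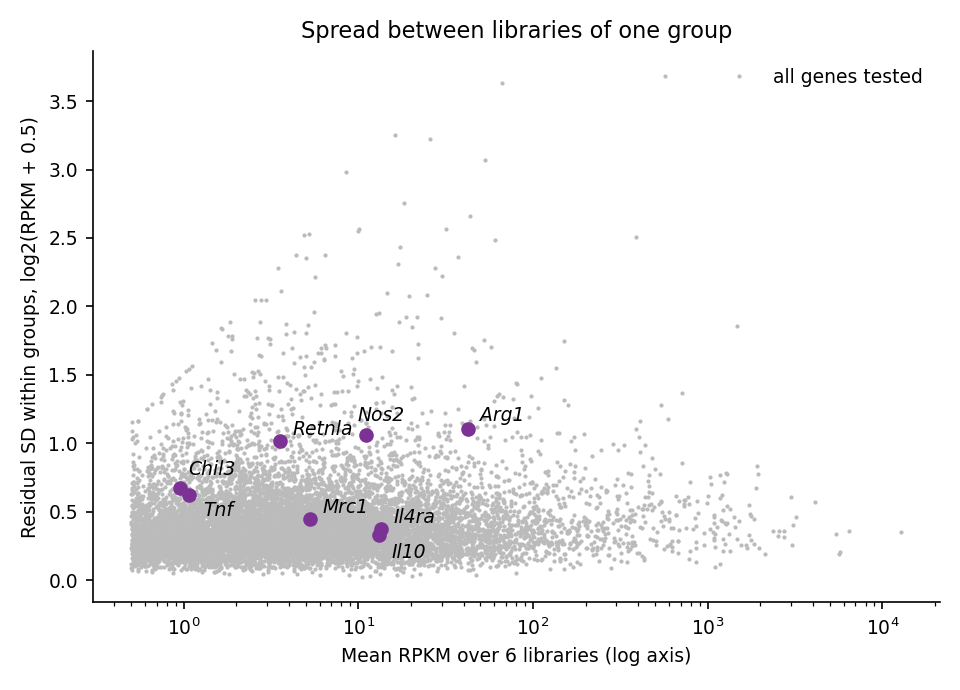
Residual SD within groups on the log2(RPKM + 0.5) scale against the mean RPKM over the 6 libraries (logarithmic axis) for the 11818 genes tested (grey) and the 8 members tested (purple). Arg1, Nos2 and Retnla lie above 1.0, while Il10, at 0.33, lies below the median of 0.37.

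Taking the comparison as a whole, 8 of the 10 members were tested, 1 with a difference above 0 and 7 below, with a median of -0.28 beside 0.05 for all genes tested, of which 58.4% were above 0. None of the 8 passed limma's test (0.0% of all genes did), 0 had an unadjusted p under 0.05 (2.25% of all genes) and 0 had groups that did not overlap (5.03% of all genes). All 8 intervals included 0. All but those of Mrc1 and Il4ra reached beyond 1 log2 unit on at least 1 side, so that a change of that size lay within the interval. These intervals are not adjusted for the number of genes tested. That of Il10 ran from -0.09 to 1.22 (limma, unadjusted p = 0.084).

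**Figure D5:**
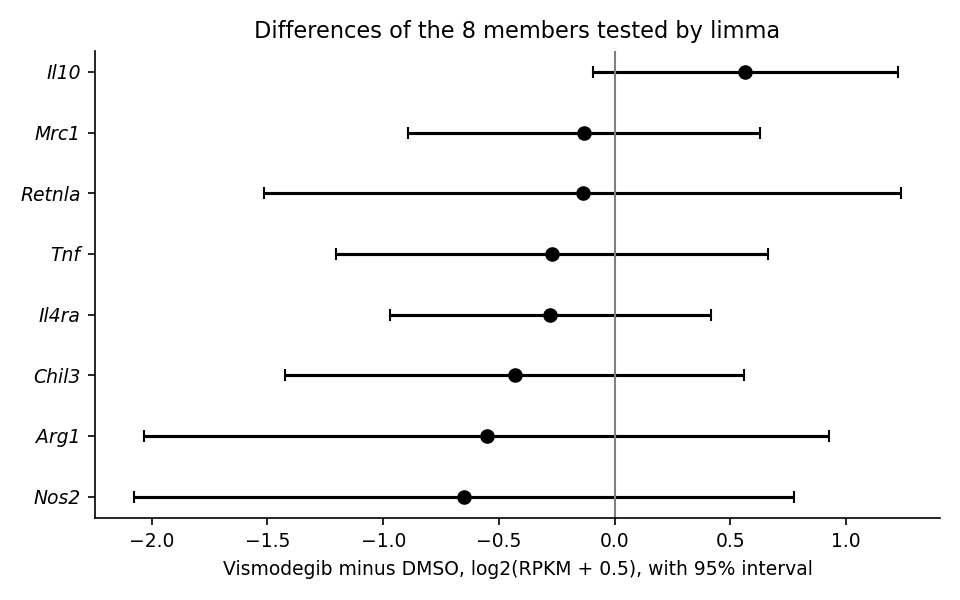
Difference of Vismodegib minus DMSO on the log2(RPKM + 0.5) scale for the 8 members tested, with limma's 95% interval. Every interval crosses 0; Il10 lies at 0.56 and the other 7 lie between -0.65 and -0.13.

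To set the members against the macrophage markers of each library, the mean log2 level of those 9 genes was subtracted. It does not measure the number of macrophages. That mean was 4.68, 4.40 and 4.37 in the controls against 4.81, 3.80 and 4.69 in the treated tumours, so that Vismodegib replicate 2 stood lowest. Single markers differed: Cd68, a lysosomal protein of macrophages, was at 8.65, 20.9 and 14.6 RPKM in the controls against 18.1, 8.03 and 6.21 RPKM in the treated tumours, lowest in Vismodegib replicate 3. C1qb and Csf1r were instead lowest in Vismodegib replicate 2, at 90.8 and 8.09 RPKM, and stood at 179 and 14.8 RPKM in Vismodegib replicate 3. Adgre1 was lowest in DMSO replicate 2, at 1.21 RPKM, and stood at 1.9 RPKM in Vismodegib replicate 3. Relative to the mean of all 9, Arg1, Chil3 and Retnla in Vismodegib replicate 3 were at -0.95, -5.44 and -4.24, each the lowest of the 6 libraries. Relative to the markers, Il10 differed by 0.62 between the groups (two-sided exact permutation p = 0.3) and Arg1 by -0.50 (exact p = 0.6). Nos2 differed by -0.60 (exact p = 0.6), Chil3 by -0.38 (exact p = 0.7), Il4ra by -0.23 (exact p = 0.6) and Tnf by -0.22 (exact p = 0.8). Mrc1, Retnla and Cd163 differed by -0.08, -0.09 and 0.03 (exact p = 0.8, 0.9 and 1). Over these 9 members every Benjamini-Hochberg adjusted p was 1, and the groups overlapped in each.

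Markers of other cells that can make these products also varied between libraries. All 11 neutrophil markers were in the table, with a summed level of 70.0, 129 and 389 RPKM in the controls against 248, 201 and 108 RPKM in the treated tumours. In this sum, as in Nos2, DMSO replicate 1 was thus lowest and DMSO replicate 3 highest. A large part of the sum was Mmp9, with the same extremes (37.9 and 161 RPKM). Single markers differed: Ltf was lowest in DMSO replicate 2 (0.757 RPKM) and highest in Vismodegib replicate 1 (29.3 RPKM). Retnlg was lowest in Vismodegib replicate 3 (2.79 RPKM) and highest in DMSO replicate 3 (17.6 RPKM). The part of neutrophils in the Nos2 level was not tested. Ly6g, a defining neutrophil marker, was at 0 in DMSO replicate 2 and Vismodegib replicate 3 and at most 0.577 RPKM elsewhere. The 5 eosinophil markers summed to 0.372 to 0.985 RPKM in DMSO and 0 to 0.590 RPKM in Vismodegib, with Epx at 0 in 5 libraries. The 8 T and NK cell markers summed to 5.56 to 6.19 RPKM in DMSO and 4.51 to 8.49 RPKM in Vismodegib. Of the 6 monocyte markers 5 were in the table, and these summed to 24.7 to 34.7 RPKM in DMSO and 26.5 to 45.3 RPKM in Vismodegib. The 9 dendritic cell markers summed to 55.1 to 69.9 RPKM in DMSO and 64.2 to 107 RPKM in Vismodegib, most of it Fscn1, which tumour cells can also make. The 6 adipocyte markers, of the surrounding fat pad, summed to 7.53 to 15.8 RPKM in DMSO and to 94.4, 71.4 and 10.7 RPKM in Vismodegib. Vismodegib replicate 3, low in most members, was the treated library with little fat, and the part of this tissue in the members' levels was not tested.

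Genes with the most similar profiles over the 6 libraries were taken from the 10129 genes averaging 1 RPKM or more, by the root mean square difference of the centred log2 values. For Arg1 these were Mpc1-ps (0.254), Pf4 (0.266) and Rnase2a (0.301), where the profile of Arg1 itself deviated from its mean by 0.943. Pf4, platelet factor 4, which macrophages also make, was at 10.6, 28.9 and 23.3 RPKM in the controls against 32.3, 12.0 and 7.15 RPKM in the treated tumours. For Nos2 they were Man1a (0.220), Has2 (0.270) and Gm3571 (0.282), with Has2, a hyaluronan synthase, at 3.08, 13.1 and 16 RPKM in the controls against 8.27, 7.52 and 4.53 RPKM in the treated tumours. For Retnla they were Nptx1 (0.186), Ccl6 (0.277) and Ackr3 (0.314), of which Ccl6, a chemokine of myeloid cells, was at 17.8, 30 and 49.8 RPKM in the controls against 70.7, 23.5 and 9.35 RPKM in the treated tumours. For Il10 they were Ltk (0.117), Erbb3 (0.149) and Ifi27 (0.155). Mpc1-ps is listed under a pseudogene symbol, so its reads may belong to its parent gene. With 6 libraries and 10129 candidates, close profiles are found for any gene, and the names are given as a description.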

How the data were processed

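RNA was measured in 3 DMSO and 3 Vismodegib libraries, grouped by title. The authors deposited 1 table of RPKM values; per the submitters' processing notes the tools were STAR, HISAT2, Partek, cutadapt, SAMtools and bcl2fastq 2.17 and the build was mm10, while what each tool did, and with which gene models and strand setting, is not given in the sources used here. RPKM divides by library reads, so a value also depends on the other genes, and estimated reads can be split between relatives. Depth was recovered from the value steps of 6990 genes with 1 transcript in GENCODE M21 (same build): 84.3% to 85.7% of values up to 20 reads were whole within 0.02 reads. Whether reads or pairs were counted is not stated, and the reads given for a member use its longest transcript. Intervals from 3 reads cover counting error only.

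Genes averaging 0.5 RPKM or more were tested on log2(RPKM + 0.5), which understates changes of low genes, with limma 3.58.1 in R 4.3.3 (trend, two-sided, Benjamini-Hochberg over all 11818 genes). Members below the filter and single values had an exact permutation test over libraries. Of these steps, the limma fit was run on simulated data with known changes and an equal spread in both groups. The share of changes recovered is not given here, so the power of the fit is not shown. Alternatives changed the pseudocount, filter, scaling, eBayes settings, library weights, replicate block and libraries left out. All 10 members are named, the 2 genes with the smallest p of each list (the rule allowed 4), single low or marker genes, and the 3 nearest profiles. Msr1, Irf1, Cd68, C1qb, Csf1r, Adgre1, Mmp9, Ltf and Retnlg were named after their values were seen. The members and lists were chosen with earlier results of these data known.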

Additional observations from a re-analysis of the deposited data

How the results depend on the processing

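Alternatives changed 1 choice at a time, and 0 genes were called under 13 of 16 of them. The exceptions were library weights (420 genes, and 1 member, Nos2), leaving out DMSO replicate 1 (19 genes, no member; without single libraries 0 to 19) and the replicate number as a block (1 gene, not a member). Library weights, whose estimate did not converge, also brought Ddah2, Socs1, Ccl24 and Pdcd1lg2 past the threshold. The block rests on a shared number only: deviations of same-numbered libraries correlated at 0.00317, 0.0379 and -0.305, not every library correlated best with its own number, and the block changed no other call.

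Directions that turned did so mainly when 1 library was left out; over those fits Mrc1 ranged from -0.47 to 0.064 (0.008 without Vismodegib replicate 2), Chil3 from -0.77 to 0.054, Retnla from -0.88 to 0.49 (0.07 without DMSO replicate 3), Tnf from -0.65 to 0.061 and Hmox1 from -1.02 to 0.18. Cd163 ranged from -0.30 to 0.38 and was 0.030 with a pseudocount of 0.1. The log2 ratio of Arg1 to Nos2 ranged from -0.61 to 0.47. Relative to the macrophage markers, the ranges were -1.04 to 0.18 for Arg1, -1.45 to 0.094 for Nos2, -0.26 to 0.24 for Mrc1, -0.25 to 0.49 for Cd163, -0.85 to 0.23 for Chil3, -0.64 to 0.67 for Retnla and -0.73 to 0.24 for Tnf, and Cd163 was -0.11 with quantile scaling. The differences of Arg1, Nos2, Il10 and Il4ra kept their sign under all 16 alternatives. The changes of filter, eBayes settings and replicate block leave a log2 difference as it was, so they could not turn a sign. With 1 library left out, the differences of Arg1 and Nos2 came as near to 0 as -0.001 and -0.01. The cause of these shifts was not tested. Chil3 fell below a filter of mean 1 RPKM and has no value there. Depth limits Il12b, at most about 1 read per library, and the value of Chil3 in Vismodegib replicate 3, at about 8.49 reads.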
